A study of Homo sapiens with 6 samples.

Results

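Genomic imprinting leaves a gene active from only the copy inherited from the mother or only the copy inherited from the father. Imprinted genes lie in clusters, and in each cluster a stretch of DNA that is methylated on 1 parental copy, the imprinting control region, sets which copy is read. Many of these genes govern fetal growth, and several clusters pair a protein-coding gene read from the father's copy with a long non-coding RNA read from the mother's copy. The 10 genes described here come from 4 such regions. They are DLK1 and MEG3 of chromosome 14 (14q32), IGF2, H19, KCNQ1OT1, CDKN1C and PHLDA2 of chromosome 11 (11p15), PEG10 and SGCE of chromosome 7 (7q21), and PEG3 of chromosome 19 (19q13). They were chosen by gene symbol out of the 24462 symbols counted in each library, and each of them has a single entry.

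Expression was measured in 3 libraries of 1CT, a line of immortalized human colon epithelial cells, and in 3 libraries of 1CT-A, the line derived from it in which wild type APC is depleted. APC is the tumor suppressor that marks β-catenin for destruction. Neither line was treated, and both grew in the same medium with EGF (20 ng/ml), hydrocortisone, insulin, transferrin, selenite and 2% serum. Whether 1CT-A is a single clone, and whether the numbered libraries come from separate cultures, is not given in the sources used here, so p-values measure the spread between these libraries, which may be technical. The libraries hold reads from the 3′ ends of transcripts, 7788679 to 8452258 counts in 1CT and 11158108 to 12602988 in 1CT-A, and levels are given as CPM, the counts scaled to a common library total.

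APC itself was measured at 49.3, 43.8 and 46.6 CPM in 1CT and at 31.5, 30.0 and 34.4 CPM in 1CT-A. The 3 libraries of 1CT-A lay below all 3 of 1CT, with a log2 fold change of -0.58 (SE 0.092, adjusted p = 0.00018, edgeR). The markers listed for colon epithelium were mostly absent or low in both lines. Of 14 epithelial markers, 5 had no count in any library, EPCAM among them, and CDH1 had at most 4 counts. KRT19 had 20 to 34 counts in each 1CT library and none in 1CT-A. Against this, CLDN7, a tight junction gene, had 196 to 308 counts in every library, and KRT18, a keratin of simple epithelia, had 82 to 109 counts in 1CT libraries and 36 to 80 in 1CT-A libraries. The summed level of the epithelial list was 40.9 to 45.1 CPM in 1CT against 23.5 to 30.2 CPM in 1CT-A, whereas all 16 mesenchymal markers passed the filter on low counts, with a summed level of 45682 to 53873 CPM in 1CT against 22720 to 24096 CPM in 1CT-A. Fibronectin (FN1) made up most of the latter, with 44241 CPM ± 3619 (SD, n = 3) in 1CT against 18127 CPM ± 829 (SD, n = 3) in 1CT-A. PTPRC, CD3E and CDH5, which define leukocytes, T cells and endothelium, had no count in any library. Between the lines, KRT18 and CLDN7 were lower in 1CT-A (log2 fold changes -1.19 and -0.40, adjusted p = 0.00088 and 0.022, edgeR). Of 16 mesenchymal markers, 5 were called higher and 7 lower at an adjusted p under 0.05 (edgeR). That is 75% in either direction, against 51.0% of all genes tested. CD68, the 1 tested marker of immune and endothelial cells, was lower (log2 fold change -0.41, adjusted p = 0.038, edgeR). The part of these marker differences in the values of the imprinted genes was not tested.

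Of the 10 imprinted genes, 8 had at least 1 count and 6 passed the filter on low counts. In 1CT-A, MEG3, KCNQ1OT1 and PHLDA2 fell, IGF2 rose, and PEG10 and SGCE did not pass the test at an adjusted p under 0.05. H19 and CDKN1C were too low to be tested, and DLK1 and PEG3 had no count in any of the 6 libraries. These calls stand against a large background, since 51.0% of the 12514 genes tested were called, 25.0% as higher and 26.0% as lower in 1CT-A. The libraries of the lines did not overlap for 4 of the 6 tested imprinted genes, and this was so for 59.7% of all genes tested. With so many genes called, the number of imprinted genes called is no result about imprinting, and the values of each gene are described one by one.

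**Figure D1:**
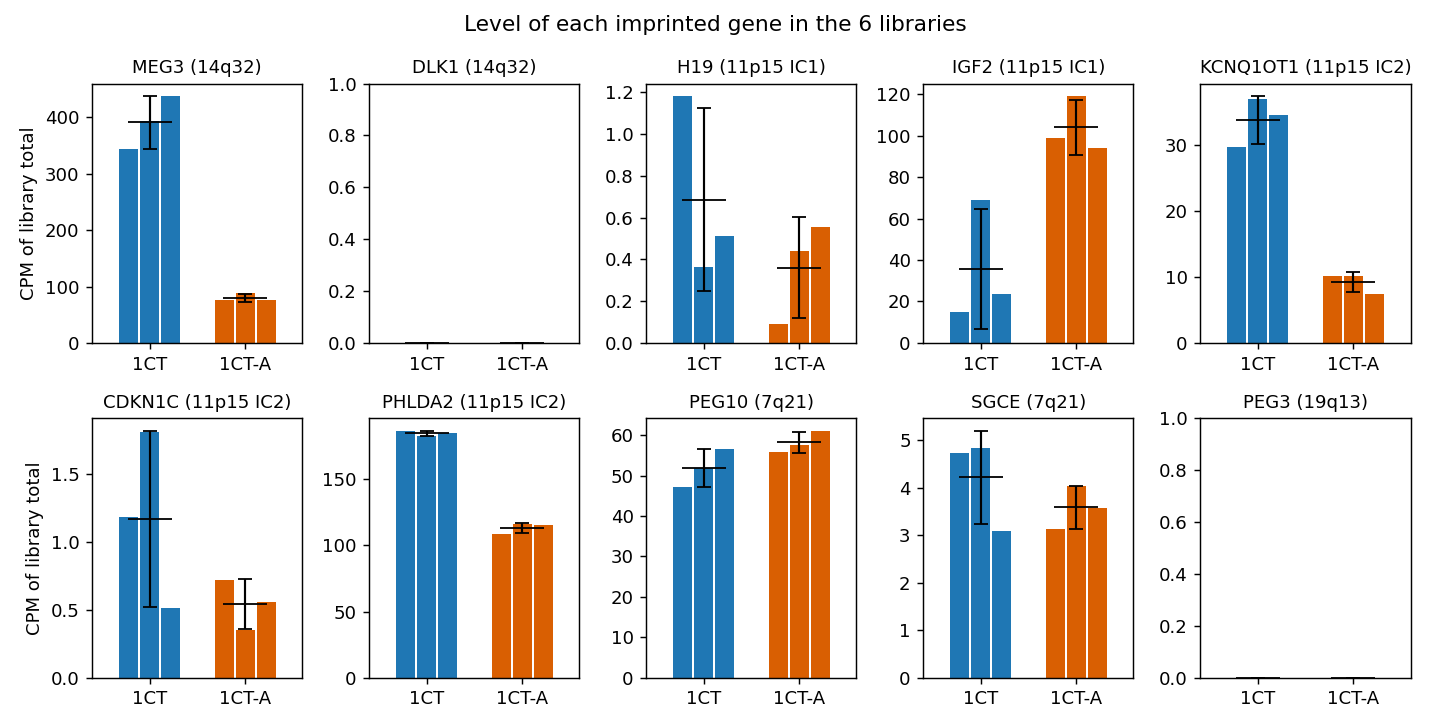
Level of each of the 10 imprinted genes, in CPM of the library total, in the 3 libraries of 1CT (blue bars) and the 3 of 1CT-A (orange bars), numbered from left to right, each vertical axis starting at 0. Black lines mark the mean and the error bars the SD of 3 libraries. MEG3 and KCNQ1OT1 stand far lower in 1CT-A, IGF2 is uneven in 1CT with its highest level in the middle library, and DLK1 and PEG3 have no bar because they have no count.

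The region 14q32 holds DLK1, which encodes a membrane-bound relative of the Notch ligands and is read from the father's copy, and MEG3, a long non-coding RNA read from the mother's copy. The start of MEG3 is shown because it belongs to the one of the 10 genes with the largest fall, and that of MEG9, a non-coding RNA further along the same cluster, because it fell too. Each line gives the 250 bases before the annotated start from RefSeq (GRCh38.p14, plus strand), at chr14:100825858-100826107 for the first of 3 listed starts of MEG3 and chr14:101069661-101069910 for MEG9. Capitals mark matches, on either strand, to TGACGTCA (the cAMP response element), TATAAA (the TATA box), CTTTGAT (bound by TCF/LEF factors, the partners of β-catenin) and TGCCGC (bound by the imprint protector ZFP57 when methylated).
MEG3: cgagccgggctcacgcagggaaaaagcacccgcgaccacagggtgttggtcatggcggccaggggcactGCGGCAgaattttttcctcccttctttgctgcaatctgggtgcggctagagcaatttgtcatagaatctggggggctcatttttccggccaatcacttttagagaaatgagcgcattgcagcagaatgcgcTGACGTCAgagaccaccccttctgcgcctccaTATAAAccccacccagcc
MEG9: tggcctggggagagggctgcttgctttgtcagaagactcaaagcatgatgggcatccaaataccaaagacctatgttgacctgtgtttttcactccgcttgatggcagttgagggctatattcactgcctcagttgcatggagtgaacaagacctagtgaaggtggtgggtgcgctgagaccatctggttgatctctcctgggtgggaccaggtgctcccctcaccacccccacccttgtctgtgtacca

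In the MEG3 window, TGCCGC was found on the opposite strand, beginning 181 bases before the start, TGACGTCA 50 bases before it and TATAAA 18 bases before it. CTTTGAT was not found. The MEG9 window held none of these letters. Among all 35116 RefSeq windows of this length, 1.65% held TGACGTCA, 10.7% held TATAAA, 2.26% held CTTTGAT and 12.7% held TGCCGC. MEG3 had 13 CpG dinucleotides in this window and MEG9 had 2, against a median of 11 over all windows. The table of starts holds a window for 2 of the 10 genes, MEG3 and H19, and methylation was not measured in these data.

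MEG3 was counted at 343, 393 and 437 CPM in the 3 libraries of 1CT and at 75.4, 87.9 and 76.5 CPM in those of 1CT-A. Every 1CT-A library lay below every 1CT library, and the mean level in 1CT-A was 20.4% of that in 1CT. The log2 fold change was -2.33 (SE 0.099, adjusted p = 1.7e-09, edgeR), which is 5.03-fold lower. In bulk RNA, a smaller share of cells that make a transcript and less of it per cell cannot be told apart. DLK1 had 0 counts in all 6 libraries. A count of 0 allows a level of up to 3 counts, or 0.355 to 0.385 CPM in a 1CT library and 0.238 to 0.269 CPM in a 1CT-A library, which covers counting error only. The ratio of MEG3 to DLK1 therefore could not be formed.

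The other entries of the cluster were low. MEG9 was at 15.1, 16.2 and 17.3 CPM in 1CT and at 4.75, 4.74 and 5.16 CPM in 1CT-A, a log2 fold change of -1.77 (SE 0.14, adjusted p = 5.9e-07, edgeR), and its groups did not overlap. MEG8 had 1 count in all libraries together, and RTL1, a gene derived from a retrotransposon and read from the father's copy, had 1 to 6 counts in a library. The 38 entries of the SNORD113 and SNORD114 small RNAs, summed after their values were seen, made 7.69, 4.23 and 7.58 CPM in 1CT and 1.52, 2.02 and 1.67 CPM in 1CT-A, and 1 of them passed the filter on low counts.

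Other transcripts were lower in 1CT-A too, where 26.0% of all genes tested were called lower. Whether they reflect RNA or library quality was not tested. MALAT1 and NEAT1, long non-coding RNAs kept in the nucleus, were chosen after their values were seen. The mean of MALAT1 was 12964 CPM ± 157 (SD, n = 3) in 1CT against 2193 CPM ± 109 (SD, n = 3) in 1CT-A, a log2 fold change of -2.60 (SE 0.062, adjusted p = 4.3e-11, edgeR). The mean of NEAT1 was 915 CPM ± 25.8 (SD, n = 3) in 1CT against 302 CPM ± 38.0 (SD, n = 3) in 1CT-A, a log2 fold change of -1.64 (SE 0.084, adjusted p = 8.6e-09, edgeR). The 398 olfactory receptor symbols, receptors that serve the nose, summed to 12.8 to 16.4 CPM in 1CT against 5.47 to 5.83 CPM in 1CT-A. Only 45 of them had a count in any library and 2 passed the filter on low counts, so a few entries may carry this sum. The part of these differences in the fall of the imprinted non-coding RNAs was not tested.

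**Figure D2:**
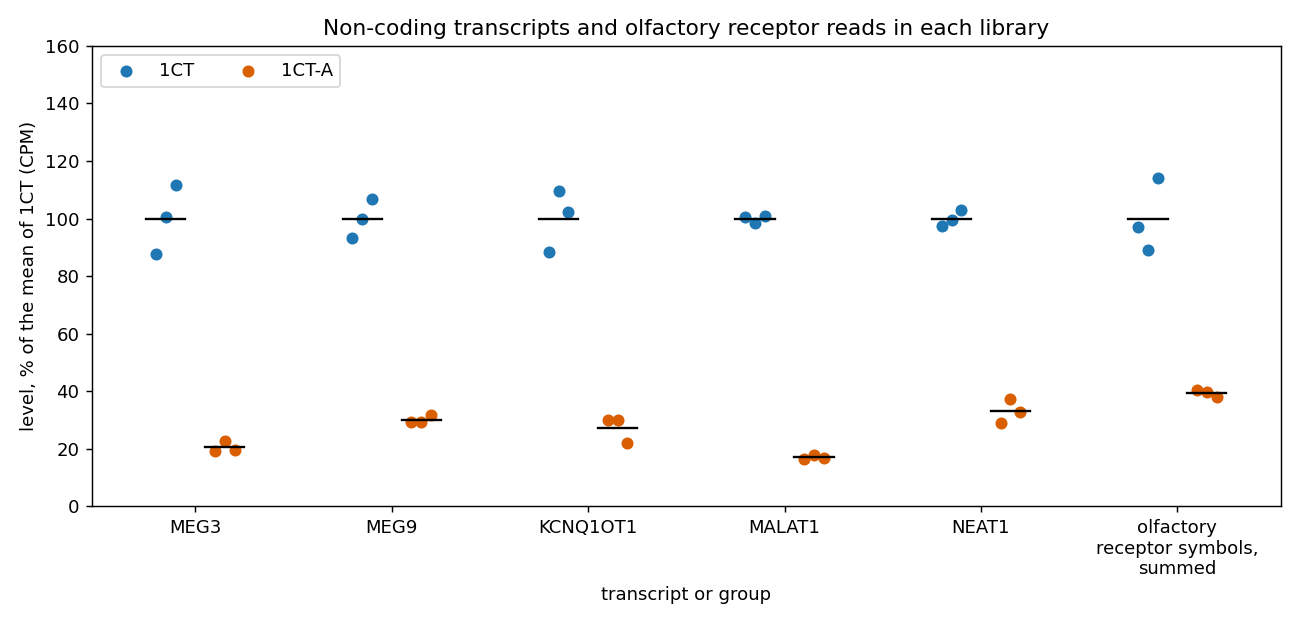
Levels in each library as a percentage of the mean of 1CT (vertical axis, from 0) for MEG3, MEG9, KCNQ1OT1, MALAT1, NEAT1 and the summed olfactory receptor symbols, with 1CT in blue, 1CT-A in orange and black lines at the means of 3 libraries. The mean of 1CT-A lies at 20.4% for MEG3, 30.1% for MEG9 and 27.3% for KCNQ1OT1. It lies at 16.9% for MALAT1, 33.0% for NEAT1 and 39.4% for the olfactory receptor sum. In none of the 6 do the lines overlap, which is so for 59.7% of all genes tested. MALAT1 and NEAT1 were chosen after their values were seen.

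The region 11p15 has separate imprinting control regions for its IGF2 and H19 part and for its KCNQ1OT1, CDKN1C and PHLDA2 part. IGF2 encodes a fetal growth factor and is read from the father's copy. It was counted at 14.9, 68.8 and 23.5 CPM in 1CT and at 99.0, 119 and 93.9 CPM in 1CT-A. All 3 libraries of 1CT-A lay above all 3 of 1CT, but 1CT replicate 2 stood much nearer to 1CT-A than the other 1CT libraries did. The log2 fold change was 1.50 (SE 0.35, adjusted p = 0.0032, edgeR), which is 2.83-fold higher. Without 1CT replicate 2 the log2 fold change was 2.40 (adjusted p = 2e-07, edgeR). It was 1.13 without 1CT replicate 1 and 1.29 without 1CT replicate 3 (adjusted p = 0.0060 and 0.0026, edgeR). The size of the difference thus depends on which 1CT library is left out, while its direction does not.

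The spread of IGF2 within 1CT was unusual for a gene of its level. Its highest 1CT library was 4.62-fold above its lowest, and of the 8245 genes that averaged 10 CPM or more in 1CT, 7 had a wider ratio. In 1CT replicate 2, 13 of these genes were more than 2-fold above both other 1CT libraries, IGF2 among them, whereas no gene was in 1CT replicate 1 or 1CT replicate 3. The same count within 1CT-A was 2 in replicate 2, MCAM and WFDC1, and 0 in the other libraries. ALDH1A1, named after its values were seen, is another of the 13, with 1.18, 54.3 and 5.78 CPM in 1CT and 12.1, 19.5 and 15.8 CPM in 1CT-A. MCAM, named in the same way, had 5.32, 39.7 and 3.21 CPM in 1CT and 8.07, 33.9 and 12.3 CPM in 1CT-A. WFDC1, also named in this way, had 3.08, 42.5 and 13.1 CPM in 1CT and 12.0, 31.6 and 15.4 CPM in 1CT-A. MCAM and WFDC1 thus stood more than 2-fold above both other libraries in replicate 2 of both lines. None of ALDH1A1, MCAM and WFDC1 passed the test between the lines. The part of the difference of 1CT replicate 2 in the level of IGF2 was not tested.

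The read-through entry INS-IGF2 had the same counts as IGF2 in all 6 libraries, so the reads of both cannot be told apart, and it is left out of the counts over gene lists, though not of the totals over all genes tested. The genes whose log2 level followed that of IGF2 most closely over the 6 libraries, after INS-IGF2, were TMEM119, a membrane protein gene (Pearson's r = 0.997), and CYGB, which encodes cytoglobin (r = 0.993), as a description over libraries that fall into 2 lines. TMEM119 was at 0.118, 3.26 and 0.770 CPM in 1CT and 6.18, 7.72 and 5.08 CPM in 1CT-A, and thus was also highest in 1CT replicate 2 among the 1CT libraries. The closest to MEG3 were DSEL (r = 0.999), ARSD (r = 0.999) and LINC00106 (r = 0.999), each lower in all 3 libraries of 1CT-A.

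H19, the non-coding RNA read from the mother's copy beside IGF2, had 10, 3 and 4 counts in 1CT and 1, 5 and 7 counts in 1CT-A, and failed the filter on low counts. Pooled over libraries this was 0.693 CPM (95% exact Poisson interval 0.404 to 1.11) in 1CT and 0.370 CPM (0.197 to 0.632) in 1CT-A, a log2 ratio of -0.91 with an exact 95% counting interval of -2.07 to 0.22, and the lines overlapped (p = 0.5, exact permutation test, two-sided). HOTS, listed on the strand opposite H19, had 10, 3 and 4 counts in 1CT and 0, 5 and 8 in 1CT-A, nearly those of H19, and strand use in the counting is not given. Where both genes had over 3 counts in a library, there were 0.0794 and 0.0219 counts of H19 per count of IGF2 in 1CT replicates 1 and 3, and 0.00368 and 0.00591 in 1CT-A replicates 2 and 3. These 4 values are given without a test.

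KCNQ1OT1, the antisense non-coding RNA that is read from the father's copy and silences its neighbours there, was counted at 29.8, 37.1 and 34.5 CPM in 1CT and at 10.1, 10.1 and 7.46 CPM in 1CT-A. All 3 libraries of 1CT-A lay below those of 1CT, with a log2 fold change of -1.92 (SE 0.14, adjusted p = 2.4e-07, edgeR), or 3.77-fold lower. MALAT1, NEAT1 and the olfactory receptor sum fell or lay lower in the same libraries, by the values given above. KCNQ1, the potassium channel gene that KCNQ1OT1 overlaps on the opposite strand, had no count in any library.

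PHLDA2, which restrains placental growth and is read from the mother's copy, had the narrowest spread within 1CT among the imprinted genes that averaged 10 CPM or more there. It was at 187, 183 and 185 CPM in 1CT and at 109, 116 and 115 CPM in 1CT-A. The lines did not overlap, and the log2 fold change was -0.74 (SE 0.068, adjusted p = 1.5e-06, edgeR), or 1.67-fold lower. CDKN1C encodes p57, an inhibitor of cyclin-dependent kinases, and is also read from the mother's copy. It had 10, 15 and 4 counts in 1CT and 8, 4 and 7 in 1CT-A and failed the filter on low counts. Pooled, this was 1.18 CPM (95% exact Poisson interval 0.792 to 1.70) in 1CT and 0.540 CPM (0.325 to 0.844) in 1CT-A, a log2 ratio of -1.13 with a counting interval of -2.05 to -0.25 that leaves out the spread between libraries, and its libraries overlapped (p = 0.3, exact permutation test, two-sided). With 3 libraries on each side, 0.1 is the smallest p this test allows. Without 1CT replicate 3, CDKN1C passed the filter and the test, with a log2 fold change of -1.47 (adjusted p = 0.019, edgeR).

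KCNQ1OT1 and PHLDA2, which are read from opposite parental copies, thus both fell. The log2 ratio of CDKN1C to PHLDA2 counts was -7.39 ± 0.87 (SD, n = 3) in 1CT and -7.65 ± 0.52 (SD, n = 3) in 1CT-A, a difference of -0.26 within the spread between libraries (p = 0.8, exact permutation test, two-sided). Another imprinted gene of the region fell as well. OSBPL5, an oxysterol-binding protein gene, went from 80.6 CPM ± 11.4 (SD, n = 3) in 1CT to 45.3 CPM ± 0.92 (SD, n = 3) in 1CT-A (log2 fold change -0.87, adjusted p = 1.5e-05, edgeR). SLC22A18, a transporter gene, was low, with 2.29 CPM ± 0.26 (SD, n = 3) in 1CT against 1.13 CPM ± 0.57 (SD, n = 3) in 1CT-A (log2 fold change -1.04, adjusted p = 0.032, edgeR). This call was lost in DESeq2 (adjusted p = 0.072) and without 1CT replicate 1 (0.066), 1CT replicate 3 (0.079), 1CT-A replicate 1 (0.12) or 1CT-A replicate 3 (0.073, edgeR). The gene was not tested where every library needed 10 counts. It passed the filter on low counts only through 1CT, so its test adds no support.

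The region 7q21 holds PEG10, a gene derived from a retrotransposon, and SGCE, the gene of ε-sarcoglycan, which lie head to head and are both read from the father's copy. PEG10 was counted at 47.1, 51.9 and 56.6 CPM in 1CT and at 55.9, 57.6 and 61.1 CPM in 1CT-A. The lines overlapped, and the log2 fold change of 0.13 (SE 0.091, adjusted p = 0.26, edgeR) did not pass the test. Without 1CT replicate 3, the 1CT library with the highest level, it was 0.21 and passed (adjusted p = 0.044, edgeR). SGCE was counted at 4.73, 4.83 and 3.08 CPM in 1CT and at 3.14, 4.04 and 3.57 CPM in 1CT-A, overlapping, with a log2 fold change of -0.28 (SE 0.24, adjusted p = 0.35, edgeR).

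The ratio of PEG10 to SGCE counts was 9.95, 10.8 and 18.4 in the libraries of 1CT and 17.8, 14.3 and 17.1 in those of 1CT-A. The difference in log2 ratio was 0.39 and did not exceed the spread between libraries (p = 0.4, exact permutation test, two-sided). A further imprinted gene of this region changed much more. TFPI2, an inhibitor of serine proteases, rose from 34.2 CPM ± 6.66 (SD, n = 3) in 1CT to 96.8 CPM ± 5.93 (SD, n = 3) in 1CT-A, a log2 fold change of 1.46 (SE 0.12, adjusted p = 4.6e-07, edgeR).

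PEG3, a zinc finger gene of 19q13 read from the father's copy, had 0 counts in all 6 libraries, with the same limits as for DLK1. The genes listed with it as imprinted, ZIM2, ZIM3, MIMT1, USP29 and PEG3-AS1, had no count either. A nearby pair of genes with a shared start did differ between the lines. ZNF667-AS1, a non-coding RNA, had 97, 92 and 95 counts in 1CT and 0, 1 and 1 in 1CT-A, a ratio of 204 with an exact 95% counting interval of 55.8 to 1689. Its partner ZNF667, a zinc finger gene, had 16, 15 and 21 counts in 1CT and none in 1CT-A, at least 8.31-fold lower against a floor of 3 counts per library. Both passed the filter on low counts only through 1CT, so their test adds no support.

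Neighbouring genes outside the lists of imprinted genes were listed for each region, and whether any of them is imprinted was not tested. Around MEG3, 3 of 13 tested neighbours were higher and 4 lower in 1CT-A, with a median log2 fold change of 0.045. BEGAIN, a gene of synapses next to DLK1, had 15, 16 and 18 counts in 1CT and 1, 0 and 0 in 1CT-A, a ratio of 70.2 with an exact 95% counting interval of 12.0 to 2830. BEGAIN passed the filter on low counts only through 1CT, so its test adds no support. YY1, a transcription factor gene on the same side, rose from 47.1 CPM ± 1.39 to 72.6 CPM ± 1.73 (SD, n = 3 each), with a log2 fold change of 0.59 (adjusted p = 4.2e-05, edgeR). MOK, a kinase gene beyond DIO3, fell from 95.1 CPM ± 5.21 to 45.3 CPM ± 1.78 (SD, n = 3 each), with a log2 fold change of -1.11 (adjusted p = 2.4e-07, edgeR). DYNC1H1, a further neighbour on the list, fell with a log2 fold change of -0.91 (adjusted p = 7.4e-06, edgeR).

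In 11p15, 3 of 15 tested neighbours were higher and 3 lower, with a median log2 fold change of -0.084. RRM1, the large subunit of ribonucleotide reductase, rose by a log2 fold change of 0.74 (adjusted p = 6.8e-06, edgeR), and CD81, a tetraspanin gene, fell with a log2 fold change of -0.62 (adjusted p = 1.7e-05, edgeR). In 7q21, 1 of 10 was higher and 2 were lower, with a median of 0.21. In 19q13, 2 of 14 were higher and 5 lower, with a median of -0.29. ZNF667 and ZNF667-AS1 are among those lower, as BEGAIN is in 14q32 and PDK4 in 7q21. All of these passed the filter on low counts only through 1CT. With them included, 23 of 52 tested neighbours over the 4 regions were called, or 44.2%, against 51.0% of all genes tested. MEG3, KCNQ1OT1 and IGF2 lay outside the range of most neighbours of their regions, with BEGAIN as an exception in 14q32.

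**Figure D3:**
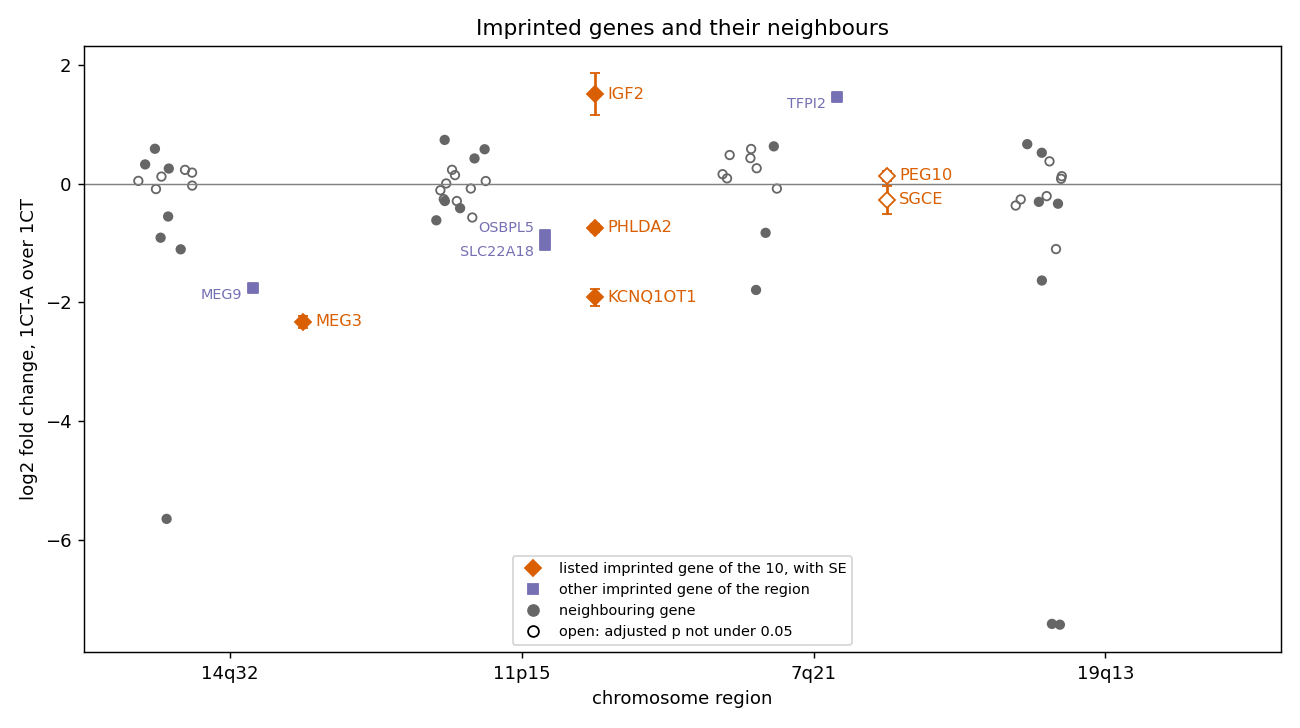
Log2 fold change of 1CT-A over 1CT (vertical axis) for genes of the 4 chromosome regions (horizontal axis). Orange diamonds are the 6 tested imprinted genes with their SE, purple squares other imprinted genes of the region, and grey circles the neighbours, open where the adjusted p was not under 0.05. PEG10 and SGCE lie near 0 among their neighbours, and the lowest points are BEGAIN in 14q32 and ZNF667 with ZNF667-AS1 in 19q13, each with at most 1 count in any 1CT-A library.

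Imprinted genes of other regions were listed for comparison. Counts per gene symbol do not tell the parental copies apart. Whether any gene named here is read from 1 copy in these cells was therefore not tested. Of 26 tested, 3 were higher and 12 lower in 1CT-A, with a median log2 fold change of -0.19, where the median over all genes tested was -0.0067. WT1 and GPR1, both called lower, passed the filter on low counts only through 1CT, so their tests add no support. With them included, the share called in either direction was 57.7%, near the 51.0% of all genes tested. Among all genes tested, 25.0% were called higher and 26.0% lower, a more even split than in this list. CPA4, a carboxypeptidase gene, fell from 134 CPM ± 4.92 in 1CT to 18.6 CPM ± 1.13 in 1CT-A (SD, n = 3 each, log2 fold change -2.89, adjusted p = 1.2e-10, edgeR). INPP5F, a phosphoinositide phosphatase gene, and BLCAP fell with log2 fold changes of -0.84 and -0.81 (adjusted p = 0.00017 and 1.1e-05, edgeR). DIRAS3, a small GTPase gene that restrains growth, rose from 66.7 CPM ± 2.96 to 173 CPM ± 7.73 (SD, n = 3 each, log2 fold change 1.34, adjusted p = 2.6e-08, edgeR). RB1 and UBE3A were the others called higher.

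Genes whose products keep imprints in place include the maintenance DNA methyltransferase and the proteins that bring it to DNA. Of 18 tested, 12 were higher and 2 lower in 1CT-A, with a median log2 fold change of 0.47. In either direction 77.8% were called, against 51.0% of all genes tested. Among all genes tested, 25.0% were called higher and 26.0% lower. The list was chosen with earlier results of these data known. DNMT1, that methyltransferase, rose from 189 CPM ± 6.24 to 362 CPM ± 1.72 (SD, n = 3 each, log2 fold change 0.90, adjusted p = 1.7e-07, edgeR). UHRF1, which recruits it to newly copied DNA, rose from 30.0 CPM ± 3.92 to 96.0 CPM ± 4.35 (SD, n = 3 each, log2 fold change 1.64, adjusted p = 3e-08, edgeR). HELLS, a chromatin remodeler, rose with a log2 fold change of 0.74 (adjusted p = 7.1e-06, edgeR), and ARID4A, a chromatin-binding protein gene, fell with one of -0.77 (adjusted p = 2.2e-05, edgeR). YY1, named above as a neighbour of MEG3, is also on this list. ZFP57 had no count in any library.

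The next list holds receptors, binding proteins and RNA-binding proteins tied to IGF2, with the Notch relatives of DLK1. Of 18 tested, 3 were higher and 10 lower in 1CT-A, with a median log2 fold change of -0.59. In either direction 72.2% were called, against 51.0% of all genes tested. Among all genes tested, 25.0% were called higher and 26.0% lower. This list too was chosen with earlier results of these data known. IGFBP2, a secreted protein that binds IGF2, fell from 593 CPM ± 41.1 in 1CT to 17.9 CPM ± 5.11 in 1CT-A (SD, n = 3 each, log2 fold change -5.10, adjusted p = 1.2e-10, edgeR). IGFBP3, of the same family, fell with a log2 fold change of -1.36 (adjusted p = 2.2e-07, edgeR). IGF2BP1, which binds IGF2 messenger RNA, fell from 14.2 CPM ± 2.75 to 0.940 CPM ± 0.58 (SD, n = 3 each, log2 fold change -3.94, edgeR). IGF2BP1 and NOTCH3, both called lower, passed the filter on low counts only through 1CT. IGFBP5, called higher, passed it only through 1CT-A. The tests of these genes therefore add no support. INSR, the insulin receptor gene, fell with a log2 fold change of -2.51 (adjusted p = 1.2e-06, edgeR). IGF2R, the receptor that clears IGF2, was at 115 CPM ± 20.1 in 1CT and 110.0 CPM ± 5.36 in 1CT-A (SD, n = 3 each) and did not pass the test (adjusted p = 0.42, edgeR).

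**Figure D4:**
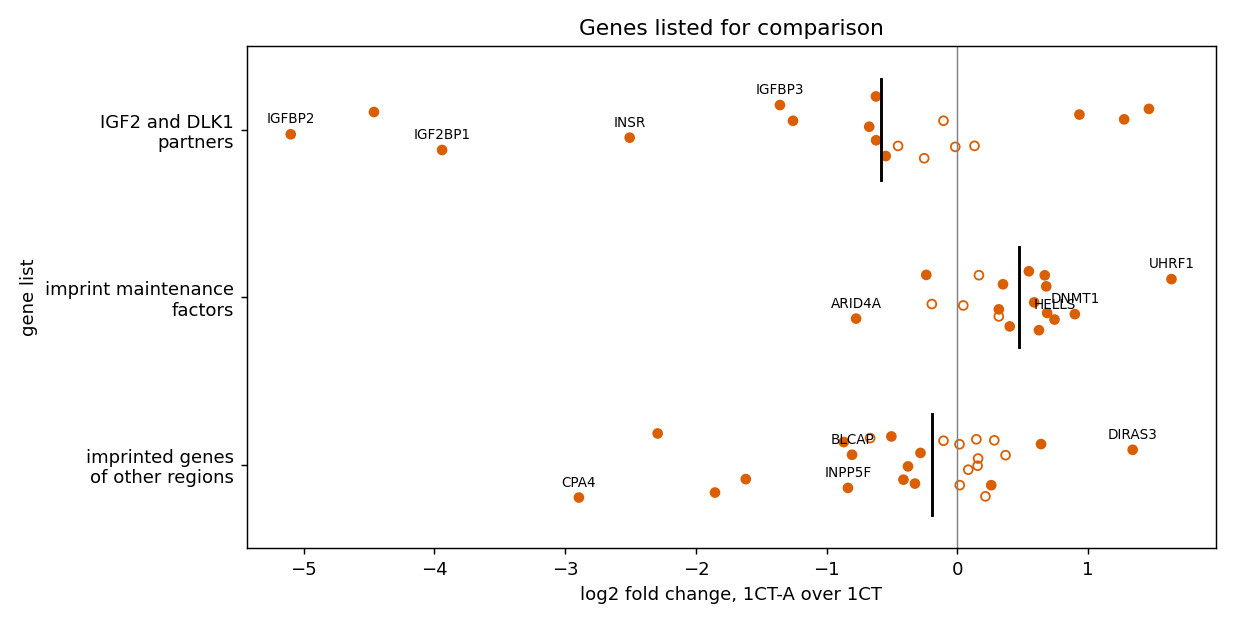
Log2 fold change of 1CT-A over 1CT (horizontal axis) for each tested gene of the lists set beside the imprinted genes (vertical axis). Filled points have an adjusted p under 0.05 and open points do not, black bars mark the medians of -0.59, 0.47 and -0.19 from top to bottom, and up to 4 genes per list are named.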

How the data were processed

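Total RNA (500 ng) from 3 libraries of 1CT and 3 of 1CT-A was sequenced with the QuantSeq 3′ kit on a NextSeq instrument. The authors deposited raw read counts per gene symbol, 1 file per library, without normalization or pooling; the submitters' processing notes name Bowtie2, edgeR and the build hg19, with no version or role. Strand use in counting is not given in the sources used here. Each file has 25737 entries, and repeated symbols were summed. The test was edgeR 4.0.16 (R 4.3.3), quasi-likelihood, TMM factors 0.976 to 1.02, filterByExpr with a minimum count of 10, no block, and Benjamini-Hochberg adjustment over 12514 genes. CPM of single genes is of the file total without TMM. Low genes have exact Poisson intervals at 95%, which cover counting error only. Log2 ratios of counts used a pseudocount of 0.5 and an exact permutation test. Likeness to MEG3 or IGF2 was Pearson's r of log2(TMM-scaled CPM + 0.5).

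The imprinted genes and all lists were chosen with earlier results of these data known. Beside the 10 genes and APC, a rule gave up to 4 genes per list. These had the largest log2 fold change among those with an adjusted p under 0.05 and a mean of at least 5 CPM. For the neighbour and mesenchymal marker lists, not all of them are named. Listed direct neighbours or promoter partners are named too, with the 3 genes most like the most raised and the most lowered of the 10 genes. Others are said to be chosen after their values were seen or are markers, cluster members or list members named for a count or for the filter. Starts came from RefSeq on GRCh38.p14. Since the counts were made on another build, no positions are given other than those of the printed RefSeq windows. Replicates differed by more than sampling noise (chi-square per degree of freedom 3.11 to 9.00), so no library is a copy. Alternatives were other normalizations, filters, thresholds, DESeq2 1.42.0, limma 3.58.1, the block, repeated symbols not summed and each library left out. The scripts were tested on simulated data.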

Additional observations from a re-analysis of the deposited data

How the results depend on the processing

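Of 255 recomputed values over 18 results and 18 settings, 250 kept their direction and their side of the threshold or, for counts, stayed within 1.5 times. The exceptions all came from leaving out 1 library. The difference in the log2 ratio of CDKN1C to PHLDA2 ranged from -0.73 to 0.12 and changed sign without 1CT replicate 2 (0.12) and without 1CT-A replicate 2 (0.0078). The log2 fold change of CDKN1C ranged from -1.47 to -0.91 where it could be fitted and passed the test without 1CT replicate 3. That of PEG10 ranged from 0.060 to 0.21 and passed without 1CT replicate 3, which made the imprinted genes called higher 2 in place of 1, a range of 1 to 2. The cause was not tested. IGF2 ranged from 1.13 to 2.40 over all alternatives, with adjusted p from 1.1e-52 (no filter) to 0.044 (DESeq2). With the replicate block, in a paired fit by number, the log2 fold change was 1.71 for IGF2 and -2.33 for MEG3. Same-numbered libraries deviated together for number 2 (correlation 0.21) but not for numbers 1 and 3 (-0.15 and -0.13). The largest correlation, 0.33, was between unlike numbers, 1CT replicate 3 and 1CT-A replicate 1. Not every library correlated best with its own number, so the numbers were not taken to pair them. IGF2, MCAM and WFDC1 were highest in replicate 2 of both lines, and whether the libraries numbered 2 share anything was not tested. The block changed no call among the imprinted genes, while 6091 genes were called in place of 6388. With upper-quartile factors 42.3% of called genes were higher, against 49.0%. The count of other imprinted genes of the same regions fell from 4 to 3 where SLC22A18 lost its call. Depth limits DLK1, PEG3, H19 and CDKN1C, which lie at or near the limit of 3 counts in a library.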
